A study of Mus musculus with 40 samples.

Results

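The nuclear genes of respiratory complex I were followed in TSCmKO mice, which lack Tsc1 in muscle fibers, and in their controls. The tissue was the EDL (extensor digitorum longus), a muscle of the lower hindlimb made mostly of fast fibers. The members were the genes of the count table named Nduf followed by a, b, c, s or v and a digit that reached 1 CPM (counts scaled to library size) in 5 or more of the 40 libraries. All 37 genes with such a name passed this filter, out of 13543 genes tested and 22844 listed. The name rule takes in Ndufa4, now regarded as part of cytochrome c oxidase, and Ndufa4l2, a hypoxia-responsive relative of it, and keeps both in the counts and medians of the 37 members. It leaves out Ndufab1, the acyl carrier subunit, and the 7 subunits encoded by mitochondrial DNA, none of which was in the table.

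Loss of Tsc1 removes a brake on mTORC1, a kinase complex that promotes protein synthesis and growth, and rapamycin inhibits that kinase complex. The 8 groups of 5 mice crossed genotype (Tsc1fl/fl controls, CON, against TSCmKO, all of the labelled strain Tsc1tm1Djk/J), age (3 or 9 months, 3m and 9m) and an intraperitoneal treatment over the last 3 days (vehicle, or rapamycin, RM). Controls were Cre-negative littermates, so floxed Tsc1 was common to all 8 groups. The promoter that drives Cre is not given in the sources used here. The labels give a rapamycin dose of 4 mg per kg, the study's text gives a different one, and the dose is therefore uncertain. Poly(A) RNA of whole muscle was sequenced, and libraries held 8883870 to 35224669 counts. Tsc1, which checks the labels, lay between 17.8 and 35.8 CPM in the 20 TSCmKO libraries and between 51.3 and 134 CPM in the 20 CON libraries. Fast fiber markers summed to between 94739 and 185403 CPM per library over their 7 genes, against 109 to 2851 CPM for the 7 slow fiber markers. The labelled insert size was larger in the older mice (223 to 308 nt, against 175 to 239 nt in the 3-month libraries), in ranges that overlap, so that the parts of age and of insert size cannot be told apart. The labels name no preparation batch.

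Complex I is the entry point of electrons from NADH into the respiratory chain of the inner mitochondrial membrane. Its peripheral arm reaches into the matrix and carries electrons along iron-sulfur clusters to ubiquinone, and its membrane arm pumps protons. Each arm holds conserved core subunits and a larger set of accessory subunits that stabilize and help to assemble the complex, and all but the mitochondrially encoded ones are imported from the cytosol. Skeletal muscle draws on it for sustained work, more so in slow and fast oxidative fibers than in the fast glycolytic fibers of the EDL.

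The promoters of 4 members are shown because their transcripts gave the largest changes past the test with rapamycin in 9-month mutants (Ndufv2, Ndufb2, Ndufc2) or were lower in 9-month mutants without overlap between libraries (Ndufs7). The windows run from 250 bases before to 50 bases after the annotated start and were taken from RefSeq on GRCm38.p6. They are printed 5′ to 3′ on the strand of the gene, with capitals for matches to any of 4 short motifs searched on both strands, GCGCATGC for Nrf1, CCGGAAG for Ets factors such as Gabpa, AAGATGGC for Yy1 and AAGGTCA for estrogen-related receptors.

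Ndufv2 promoter, chr17:66101510-66101809, minus strand: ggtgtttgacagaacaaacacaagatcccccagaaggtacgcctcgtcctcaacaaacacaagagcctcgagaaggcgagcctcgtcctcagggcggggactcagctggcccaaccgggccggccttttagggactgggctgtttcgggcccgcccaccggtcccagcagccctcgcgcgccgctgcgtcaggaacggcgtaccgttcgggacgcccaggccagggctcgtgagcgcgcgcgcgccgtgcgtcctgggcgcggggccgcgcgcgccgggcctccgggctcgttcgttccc
Ndufb2 promoter, chr6:39592315-39592614, plus strand: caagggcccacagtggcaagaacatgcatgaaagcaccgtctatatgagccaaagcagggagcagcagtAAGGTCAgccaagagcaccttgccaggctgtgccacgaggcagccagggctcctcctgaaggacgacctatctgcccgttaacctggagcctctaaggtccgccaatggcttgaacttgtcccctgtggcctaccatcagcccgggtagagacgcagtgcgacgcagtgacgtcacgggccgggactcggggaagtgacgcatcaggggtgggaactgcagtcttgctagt
Ndufc2 promoter, chr7:97399753-97400052, plus strand: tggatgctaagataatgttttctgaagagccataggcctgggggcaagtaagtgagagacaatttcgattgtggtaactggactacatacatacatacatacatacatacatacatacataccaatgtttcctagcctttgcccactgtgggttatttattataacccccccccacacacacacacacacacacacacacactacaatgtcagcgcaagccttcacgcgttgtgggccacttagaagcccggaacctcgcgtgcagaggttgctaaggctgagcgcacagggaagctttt
Ndufs7 promoter, chr10:80249199-80249498, plus strand: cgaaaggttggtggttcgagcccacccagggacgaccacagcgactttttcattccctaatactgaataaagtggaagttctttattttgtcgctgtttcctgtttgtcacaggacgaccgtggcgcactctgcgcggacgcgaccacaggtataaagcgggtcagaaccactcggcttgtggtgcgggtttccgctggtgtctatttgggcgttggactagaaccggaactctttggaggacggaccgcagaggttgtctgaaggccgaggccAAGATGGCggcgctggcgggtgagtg

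Of the 37 members, 32 had a window in the RefSeq table, in 34 windows, and Ndufa2, Ndufa4l2, Ndufb9 and Ndufs1 were among those that had none. The Yy1 letters stood in windows of 7 members (Ndufa3, Ndufa9, Ndufb8, Ndufc1, Ndufs4, Ndufs6 and Ndufs7), 20.6% of the member windows against 2.75% of all 32851 windows. The Nrf1 letters stood in 3 members (Ndufa6, Ndufa8, Ndufa11), 8.82% against 2.71%, and the estrogen-related receptor letters in 3 (Ndufb2, Ndufb4, Ndufs5), 8.82% against 4.72%. The Ets letters stood in 4 (Ndufb6, Ndufb7, Ndufs3, Ndufs8), 11.8% against 8.86%. Median GC content was 59.0% in the member windows and 52.7% in all windows, which were matched to the members neither for GC content nor for expression. In the 4 windows printed, Ndufb2 held the estrogen-related receptor letters, Ndufs7 held the Yy1 letters and the other two held none of the 4 motifs. A match is a match of letters in these windows and no measured binding.

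Levels of different genes are compared here as TPM, which are scaled to transcript length as well as library size. Averaged over the 40 libraries, Ndufa4 stood highest at 1690 TPM and Ndufa4l2 lowest at 14.6 TPM. Among the complex I subunits proper, Ndufv2 led with 1023 TPM, and Ndufb9 with 978 and Ndufb5 with 791 TPM were also high. The lowest were Ndufb7 with 133, Ndufa1 with 130 and Ndufa11 with 63.4 TPM. Core subunits of the peripheral arm were spread over this order, from Ndufv2 at rank 2 to Ndufs8 with 195 TPM at rank 31. All further levels are CPM after TMM scaling, which serve comparisons of a gene between libraries.

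The members moved together from library to library. With the group means removed, the Pearson correlation of a member with the median of the other members over the 40 libraries reached 0.923 for Ndufb6 and was above 0.6 for 33 of the 37, while Ndufb2 (0.391), Ndufa4l2 (0.307), Ndufv1 (0.195) and Ndufs1 (0.132) followed the others least. The median of the members also followed that of 40 genes of complexes II to V (r = 0.960) and that of 1245 other tested genes with transcripts up to 1000 nt (r = 0.943), and ran opposite to that of 12261 other longer genes (r = -0.776). The points of these correlations share libraries and scaling. Transcript length was short in the members themselves, at most 1000 nt in 26 of the 37. With insert size the correlation was -0.132 over 39 libraries.

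**Figure D1:**
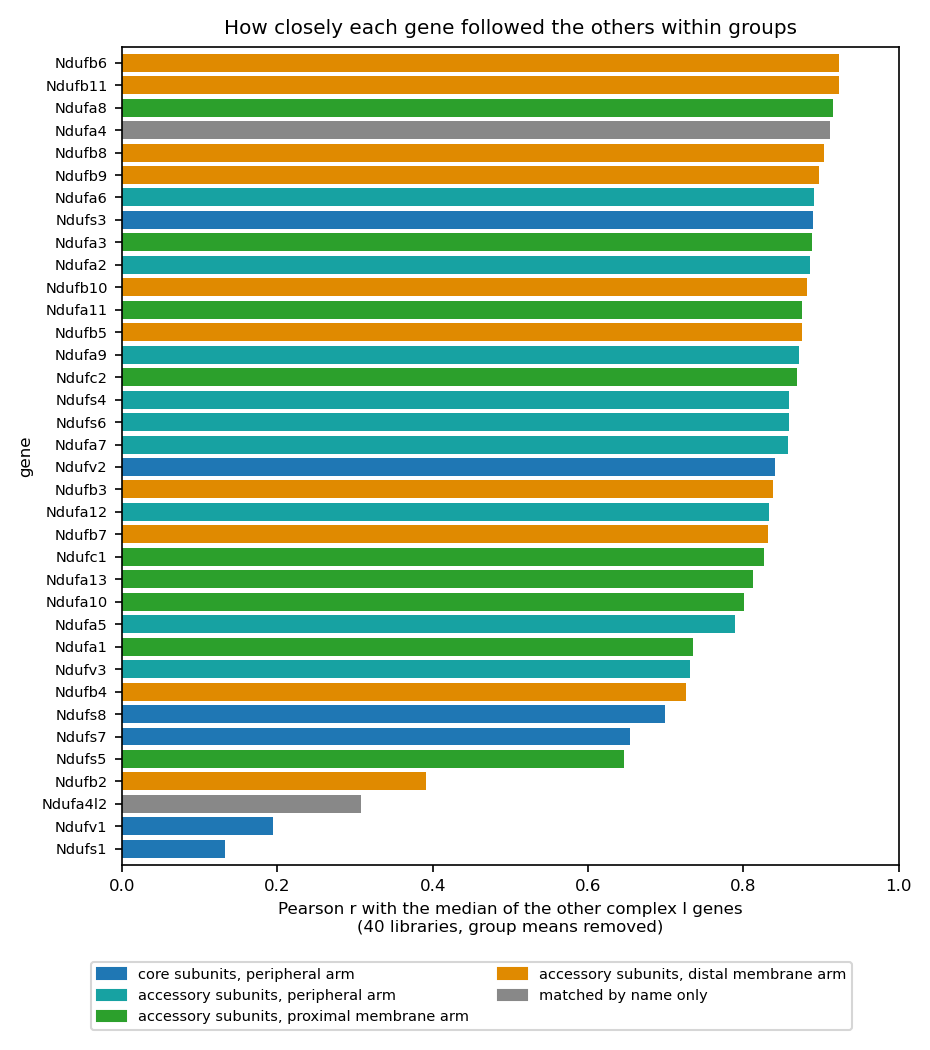
Bars give, for 36 genes, the Pearson correlation of log2 CPM with the median of the other members over 40 libraries after removal of group means, colored by place in the complex. Most genes lie above 0.6, and Ndufs1 at 0.132 and Ndufv1 at 0.195 lie lowest.

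In this shared level 4 libraries stood apart, 1 in each 9-month group. They were found by the 1245 short genes that are no members, whose median lay 0.32 to 0.43 (log2) above the median of the group in 9mCON replicate 2, 9mCON+RM replicate 1, 9mTSCmKO replicate 3 and 9mTSCmKO+RM replicate 1, against at most 0.26 in either direction in every other library. The median of the 37 members was 0.76, 0.43, 0.63 and 0.40 above the mean of all libraries in these libraries. Summed over the members, 9mCON replicate 2 held 13722 CPM and the other 9mCON libraries 6641 to 8499 CPM. The counts of members called are therefore given with and without these 4 libraries, while values of other lists and of length classes come from the fit of all libraries, and the part of this shared level in each result was not tested otherwise. The shares of all genes beside the counts come from the fit of all libraries at the adjusted threshold.

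**Figure D2:**
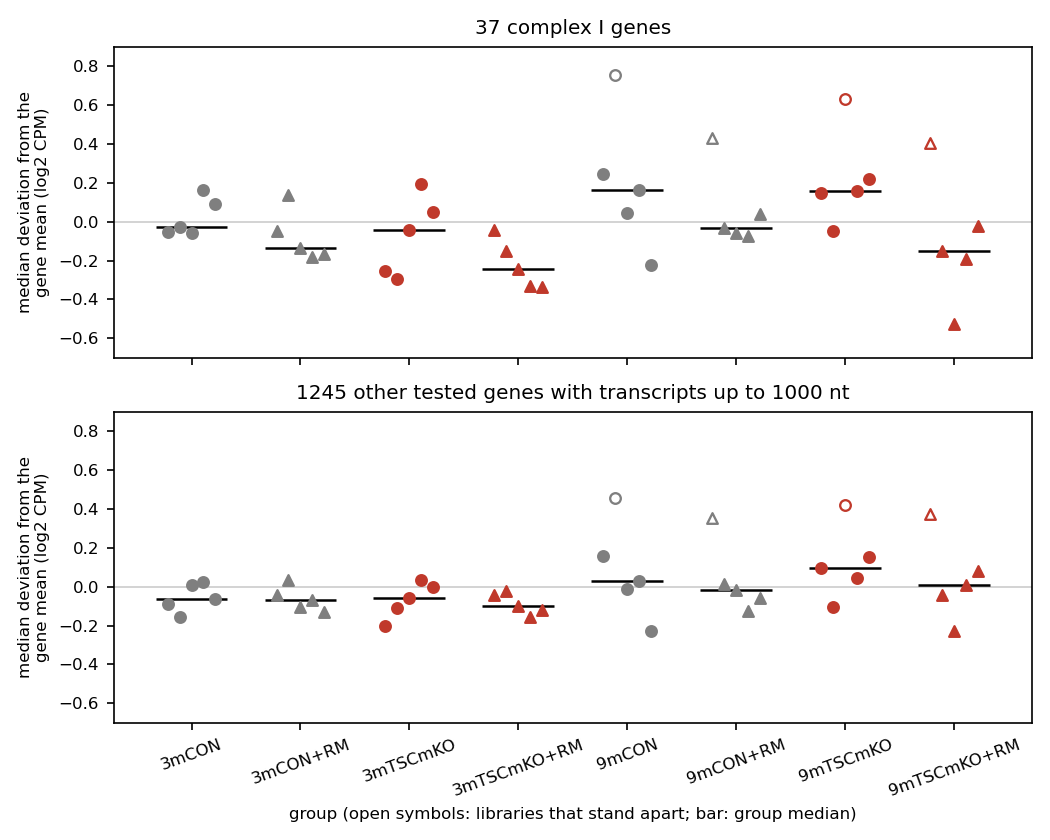
Each point is a library, plotted as the median over genes of the deviation of log2 CPM from the gene mean, for the 37 members (upper) and for 1245 other genes with transcripts up to 1000 nt (lower), by group, with a bar at the group median. Circles are vehicle, triangles rapamycin, gray CON, red TSCmKO, and the open symbols are the 4 libraries that stand apart, which are the highest of their group in both panels.

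Constant mTORC1 activity was first compared with control muscle at 9 months, the age of overt myopathy in this model. Against 9mCON, 3 of the 37 members were lower in 9mTSCmKO and none was higher by edgeR's quasi-likelihood test with Benjamini-Hochberg adjustment over all genes. They were the core subunits Ndufs1 and Ndufs7 and the relative Ndufa4l2. In the fit of all libraries the members' share of 8.11% lay below the 37.9% of all genes that changed in this comparison and the 18.9% that were lower. No share of all genes is given for the fits below that leave out libraries. The median log2 fold change of the members was -0.03, against -0.02 over all genes. Without 9mCON replicate 2, one of the libraries that stand apart, 8 members passed the test, these 3 lower and Ndufb5, Ndufv2, Ndufb6, Ndufb3 and Ndufa5 higher by 0.38 to 0.76, and the members' median turned to 0.11, with 26 of 37 positive. Without all 4 of those libraries the count was 4, these 3 lower and Ndufb3 higher at 0.46 with an adjusted p of 0.026, and the median was 0.01, with 20 of 37 positive.

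The CPM of Ndufs1 in replicates 1 to 5 were, at 3 months, 529, 584, 430.4, 521 and 583 in 3mCON, 399, 428, 422, 379 and 445 in 3mCON+RM, 405, 320.5, 375, 361 and 385 in 3mTSCmKO, and 369.8, 323, 353, 307 and 321 in 3mTSCmKO+RM. In the older mice Ndufs1 stood at 266, 536, 485, 477 and 500.2 in 9mCON, 371, 361, 305, 385 and 479.7 in 9mCON+RM, 224, 339, 316, 318 and 249.97 in 9mTSCmKO, and 327, 311, 278, 259 and 267 in 9mTSCmKO+RM. On vehicle, every 3mCON library lay above every 3mTSCmKO library, and at 9 months all 9mCON libraries but replicate 1 lay above 9mTSCmKO. The CON+RM libraries overlapped those of TSCmKO at both ages. Ndufs1, the largest subunit of complex I, carries iron-sulfur clusters near the NADH site, and its gene lies on chromosome 1 from 63143596 to 63176833 (GRCm38). TSCmKO against CON gave a log2 fold change of -0.65 (SE of 0.14, adjusted p of 0.00022) at 9 months, and -0.52 (SE of 0.13, adjusted p of 0.0044) in the younger mice.

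Ndufs7 was measured at 3 months at 177, 179.5, 209, 242 and 232 in 3mCON, 176, 226, 184, 161 and 177 in 3mCON+RM, 118, 169, 185, 202 and 197 in 3mTSCmKO, and 208, 185, 154, 174 and 169.6 in 3mTSCmKO+RM (CPM of replicates 1 to 5). The corresponding 9-month levels of Ndufs7 were 208, 296, 211, 228 and 205 in 9mCON, 225, 201, 207, 174 and 184 in 9mCON+RM, 91.0, 154, 202, 163 and 192 in 9mTSCmKO, and 220.0, 163, 136, 134 and 154 in 9mTSCmKO+RM. Every 9mTSCmKO library lay below every 9mCON library, the lowest being 9mTSCmKO replicate 1, while the 3-month groups overlapped. Ndufs7 holds the last iron-sulfur cluster before ubiquinone and lies on chromosome 10 from 80249121 to 80256794. The log2 fold change by genotype was -0.52 (SE of 0.16, adjusted p of 0.00951) at 9 months. The 3-month value, -0.26 (SE of 0.16, adjusted p of 0.279), did not pass the test, and neither did the difference between the ages, -0.26 (SE of 0.22, adjusted p of 0.552).

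At 3 months Ndufa4l2 stood, in CPM of replicates 1 to 5, at 7.56, 6.73, 7.39, 7.98 and 8.11 in 3mCON, 7.65, 6.86, 7.87, 7.58 and 9.39 in 3mCON+RM, 6.13, 6.73, 6.12, 7.71 and 9.03 in 3mTSCmKO, and 8.02, 7.31, 5.12, 8.09 and 10.6 in 3mTSCmKO+RM. Its 9-month values were 8.62, 9.89, 4.87, 6.66 and 8.78 in 9mCON, 8.24, 7.97, 8.25, 5.16 and 4.93 in 9mCON+RM, 1.87, 4.24, 4.97, 4.62 and 5.03 in 9mTSCmKO, and 8.45, 4.21, 5.49, 4.55 and 5.12 in 9mTSCmKO+RM. The 3-month groups and the 9-month controls shared 1 range, from 4.87 to 10.6 CPM, and the 9mTSCmKO libraries lay at its lower end or below it. Ndufa4l2, on chromosome 10 from 127514967 to 127517154, had a log2 fold change of -0.91 (SE of 0.21, adjusted p of 0.000932), the largest change of any member in this comparison, at the lowest level of any member. Its 3-month value was -0.08 (SE of 0.21, adjusted p of 0.842), and of all members it came nearest to a difference between the ages, at -0.83 (SE of 0.30, adjusted p of 0.0999).

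At 3 months, before overt myopathy, 2 members were lower in 3mTSCmKO than in 3mCON and none was higher, 5.41% against 19.8% of all genes changed and 8.32% lower. They were the core subunits Ndufs1 and Ndufs3. The median log2 fold change of the members was -0.08, with 29 of the 37 negative, against -0.02 over all genes. Without the 4 libraries that stand apart, which are all of 9 months and enter here only through the shared scaling, filter and estimate of spread, 5 members were lower, Ndufb10, Ndufs4 and Ndufa10 having been added. The share of all genes lower in that fit is not given.

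The CPM of Ndufs3 in replicates 1 to 5 were, at 3 months, 212, 218, 225, 240.3 and 253 in 3mCON, 210.4, 260.2, 205, 191 and 201 in 3mCON+RM, 154, 164, 167, 191 and 187 in 3mTSCmKO, and 213, 187, 169, 176 and 173 in 3mTSCmKO+RM. In the older mice Ndufs3 stood at 245, 336, 216, 273 and 225 in 9mCON, 285, 218, 196, 217 and 230.2 in 9mCON+RM, 179, 172, 251, 211 and 228 in 9mTSCmKO, and 268, 200.2, 149, 177 and 193 in 9mTSCmKO+RM. The 3-month groups on vehicle did not overlap, and the 9-month ones did. Ndufs3, on chromosome 2 from 90894634 to 90904827, belongs to the part of the peripheral arm that faces the ubiquinone site. By genotype its log2 fold change was -0.41 (SE of 0.13, adjusted p of 0.0213) at 3 months, and the 9-month value, -0.31 (SE of 0.13, adjusted p of 0.0546), did not pass the test.

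The genotype effects at the 2 ages were also compared with each other. No member differed by edgeR's test of the difference, against 4.94% of all genes, 1 member did so at an unadjusted p under 0.05 (Ndufa4l2), and DESeq2 and limma on TPM gave 0 as well. The median of the members' differences was 0.04, or 0.08 without the libraries that stand apart. Slow fiber markers moved with genotype over the same libraries, at a summed level of 124 to 197 CPM in 9mCON and 1060 to 2851 CPM in 9mTSCmKO, with 7 of 7 higher (Myl2 by 5.04 ± 0.51 and Atp2a2 by 4.07 ± 0.36, log2 ± SE). At 3 months 2 of the 7 were higher, and the ranges were 121 to 536 CPM in 3mCON and 281 to 1217 CPM in 3mTSCmKO. Fibroblast and tendon markers were lower too at 9 months, 4 of 6, with sums of 258 to 766 CPM in 9mTSCmKO against 680 to 1488 CPM in 9mCON. Of the 7 fast fiber markers 3 were lower (Myh4, Ckm, Acta1), with sums of 94739 to 114023 CPM against 143621 to 166491 CPM, and 2 of 5 endothelial markers were lower (Tek, Pecam1). The part of fiber type or of other cells in the complex I values was not tested. In whole muscle, fewer fibers of a type and less RNA per fiber cannot be told apart.

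The effect of 3 days of rapamycin in mutant muscle was compared next. At 9 months, 8 members were lower in 9mTSCmKO+RM than in 9mTSCmKO and none was higher, 21.6% of the members against 32.6% of all genes changed and 16.8% lower. They were the core subunits Ndufv2 and Ndufs8, the proximal membrane arm subunits Ndufc2 and Ndufa11, and the distal membrane arm subunits Ndufb2, Ndufb3, Ndufb6 and Ndufb8. None of the 9 accessory subunits of the peripheral arm passed the test in the fit of all libraries, while 5 of them (Ndufa2, Ndufa5, Ndufs4, Ndufs6 and Ndufv3) did so without 9mTSCmKO+RM replicate 1, and the same 5 without the 4 libraries that stand apart. The median log2 fold change of the members was -0.30, with 33 of 37 negative, against -0.04 over all genes. Single libraries set this count. It was 20 without 9mTSCmKO+RM replicate 1 and 2 (Ndufb2 and Ndufc2) without 9mTSCmKO replicate 3, both of them libraries that stand apart, 16 without 9mTSCmKO replicate 2, 5 without 9mTSCmKO+RM replicate 2 and 4 without replicate 3 or replicate 4 of that group. The median was -0.46 without 9mTSCmKO+RM replicate 1 and -0.20 without 9mTSCmKO replicate 3, with 35 and 31 of 37 negative. Without all 4 libraries that stand apart the count was 18, and the median was -0.38. The 32.6% and 16.8% of all genes belong to the fit of all libraries, and no share is given for these other fits. Fiber type markers moved in the same comparison. Of 7 fast fiber markers 3 were higher (Myh4, Ckm, Myh1) and 1 lower (Pvalb), and of 7 slow fiber markers 2 were lower, their sum being 802 to 1317 CPM in 9mTSCmKO+RM. Of 5 macrophage and leukocyte markers 1 was lower, with all 5 values negative, and of 5 endothelial markers 1 was higher and 1 lower. The part of these markers in the members' values was not tested.

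Ndufv2 was measured at 3 months at 531, 736, 607, 726 and 737 in 3mCON, 467, 598, 479, 525 and 470.0 in 3mCON+RM, 627, 428, 623, 785 and 609 in 3mTSCmKO, and 560.2, 436, 536, 504 and 467 in 3mTSCmKO+RM (CPM of replicates 1 to 5). The corresponding 9-month levels of Ndufv2 were 788, 1465, 707, 619 and 532 in 9mCON, 963, 534, 489, 575 and 719 in 9mCON+RM, 1342, 676, 1430.4, 713 and 740.0 in 9mTSCmKO, and 842, 513, 420.1, 555 and 638 in 9mTSCmKO+RM. In 9mTSCmKO, replicates 1 and 3 lay well above the other libraries, which were within the range of 9mTSCmKO+RM. Ndufv2 carries an iron-sulfur cluster beside the NADH site and lies on chromosome 17 from 66078638 to 66101559. Its log2 fold change with rapamycin was -0.72 (SE of 0.23, adjusted p of 0.0123), and -0.30 (SE of 0.22, adjusted p of 0.373) at 3 months.

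At 3 months Ndufb2 stood, in CPM of replicates 1 to 5, at 98.0, 97.5, 97.9, 153 and 128 in 3mCON, 98.5, 103, 83.5, 110.3 and 97.4 in 3mCON+RM, 99.1, 73.7, 95.5, 149 and 72.7 in 3mTSCmKO, and 76.5, 68.0, 70.2, 93.2 and 84.5 in 3mTSCmKO+RM. Its 9-month values were 174, 175, 169.7, 140.3 and 107 in 9mCON, 121, 140.4, 127, 129 and 124 in 9mCON+RM, 173, 123, 163, 149 and 124 in 9mTSCmKO, and 87.3, 96.4, 76.2, 101 and 106 in 9mTSCmKO+RM. Every 9mTSCmKO+RM library lay below every 9mTSCmKO library and every 9mCON library. Ndufb2 is an accessory subunit of the distal membrane arm on chromosome 6 from 39592574 to 39603382, whose promoter above held the estrogen-related receptor letters. Its log2 fold change with rapamycin was -0.65 (SE of 0.16, adjusted p of 0.0014) at 9 months, and its 3-month value was -0.32 (SE of 0.16, adjusted p of 0.135). Of its 31-base stretches 2.70% also occur in transcripts of other genes, from which reads cannot be told apart.

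The CPM of Ndufc2 in replicates 1 to 5 were, at 3 months, 82.9, 105, 97.4, 107 and 110.1 in 3mCON, 77.4, 97.3, 75.3, 72.4 and 73.9 in 3mCON+RM, 78.3, 72.6, 94.7, 130.0 and 110.1 in 3mTSCmKO, and 86.6, 65.3, 69.0, 61.2 and 58.8 in 3mTSCmKO+RM. In the older mice Ndufc2 stood at 78.4, 159, 81.3, 101 and 73.2 in 9mCON, 104, 57.9, 62.8, 58.3 and 60.4 in 9mCON+RM, 62.5, 67.3, 105, 81.4 and 93.4 in 9mTSCmKO, and 72.8, 54.9, 42.1, 49.4 and 47.1 in 9mTSCmKO+RM. In each pairing the rapamycin group was the lower one, with overlap, and in CON at 9 months only replicate 1 of 9mCON+RM, a library that stands apart, reached the 9mCON range. Ndufc2, a small membrane arm subunit on chromosome 7 from 97400003 to 97407802, had a log2 fold change with rapamycin of -0.62 (SE of 0.19, adjusted p of 0.0105) in 9-month and of -0.51 (SE of 0.19, adjusted p of 0.043) in 3-month TSCmKO muscle. The same values in CON were -0.52 (SE of 0.19, adjusted p of 0.0655) for the older and -0.34 (SE of 0.19, adjusted p of 0.632) for the younger mice, neither past the test. Without the libraries that stand apart the 9-month value in CON was -0.47, with an adjusted p of 0.039.

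Ndufs8 was measured at 3 months at 98.7, 99.2, 111, 126 and 120.0 in 3mCON, 111, 126, 97.0, 96.1 and 96.1 in 3mCON+RM, 76.4, 98.0, 100.4, 128 and 121 in 3mTSCmKO, and 98.6, 104, 81.9, 97.3 and 92.1 in 3mTSCmKO+RM (CPM of replicates 1 to 5). The corresponding 9-month levels of Ndufs8 were 114, 142, 103, 121 and 109.9 in 9mCON, 135, 94.6, 114, 104 and 96.2 in 9mCON+RM, 70.8, 105, 125, 104 and 112 in 9mTSCmKO, and 106, 74.7, 64.2, 61.1 and 79.8 in 9mTSCmKO+RM. All 9mTSCmKO+RM libraries but replicate 1 lay below every 9mCON and 9mCON+RM library, and they overlapped 9mTSCmKO through its replicate 1. Ndufs8, on chromosome 19 from 3908863 to 3912774, holds a pair of iron-sulfur clusters on the way to ubiquinone. Its log2 fold change with rapamycin in TSCmKO was -0.42 (SE of 0.14, adjusted p of 0.0213) at 9 months, with -0.14 (SE of 0.14, adjusted p of 0.508) at 3.

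The other members that were lower in this comparison were Ndufb6 at -0.61 (SE of 0.23, adjusted p of 0.0429), Ndufa11 at -0.59 (SE of 0.18, adjusted p of 0.00869) and Ndufb8 at -0.45 (SE of 0.16, adjusted p of 0.0339), beside Ndufb3 at -0.57 (SE of 0.22, adjusted p of 0.0474), all accessory subunits of the membrane arm. Larger values that did not pass the test were those of Ndufc1 at -0.90 (SE of 0.37, adjusted p of 0.0622) and Ndufa5 at -0.74 (SE of 0.31, adjusted p of 0.0612), whose libraries were spread widely. Of the 31-base stretches of Ndufb8 and Ndufc1, 5.14% and 7.37% also occur in transcripts of other genes. The core subunits Ndufs1 at -0.00 (SE of 0.13, adjusted p of 0.986) and Ndufs7 at 0.01 (SE of 0.16, adjusted p of 0.973), lower in mutant muscle, lay close to 0 with rapamycin.

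At 3 months 1 member, Ndufc2, was lower in 3mTSCmKO+RM than in 3mTSCmKO and none was higher, 2.70% against 23.6% of all genes changed and 13.0% lower. The median of the members was -0.20, with 30 of 37 negative, against 0.01 over all genes. In each of 6 of the 10 fits that left out 1 library of these groups no member passed, and without the 4 9-month libraries that stand apart 4 members did (Ndufc2, Ndufb9, Ndufb5 and Ndufb8). Markers moved in the same comparison. Of 7 fast fiber markers 3 were higher and 1 lower, and 1 of 7 slow fiber markers was lower. Higher were 2 of 6 fibroblast and tendon markers and 1 of 5 macrophage and leukocyte markers. The part of these in the members' values was not tested.

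In control muscle no member passed the test with rapamycin. At 9 months the count was 0 of 37 by edgeR against 11.8% of all genes, with 2 at an unadjusted p under 0.05, 0 by DESeq2 and 2 by limma on TPM. The median was -0.19, and 32 of the 37 values were negative. Without the libraries that stand apart 1 member, Ndufc2, passed and the median was -0.12. At 3 months the count was 0 by edgeR, against 0.679% of all genes, with 1 at an unadjusted p under 0.05 (Ndufs1) and 0 by DESeq2 and by limma. The median was -0.13, with 29 of 37 negative. Fibroblast and tendon markers (5 of 6 lower, summed level 680 to 1488 CPM in 9mCON and 114 to 501 CPM in 9mCON+RM) and macrophage and leukocyte markers (4 of 5 lower, 18.1 to 52.7 against 3.91 to 14.4 CPM) also moved with rapamycin in 9-month controls, and their part in the members' values was not tested.

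The rapamycin effects of the 2 genotypes were compared directly at each age. At 9 months no member differed, against 4.87% of all genes, with 0 at an unadjusted p under 0.05 by edgeR and 0 calls by DESeq2 and by limma, and the median difference was -0.12, or -0.25 without the libraries that stand apart. At 3 months the counts were the same 0, against 3.45% of all genes, and the median difference was -0.08. A member called in mutant and not in control muscle was thus not shown to respond differently in them.

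**Figure D3:**
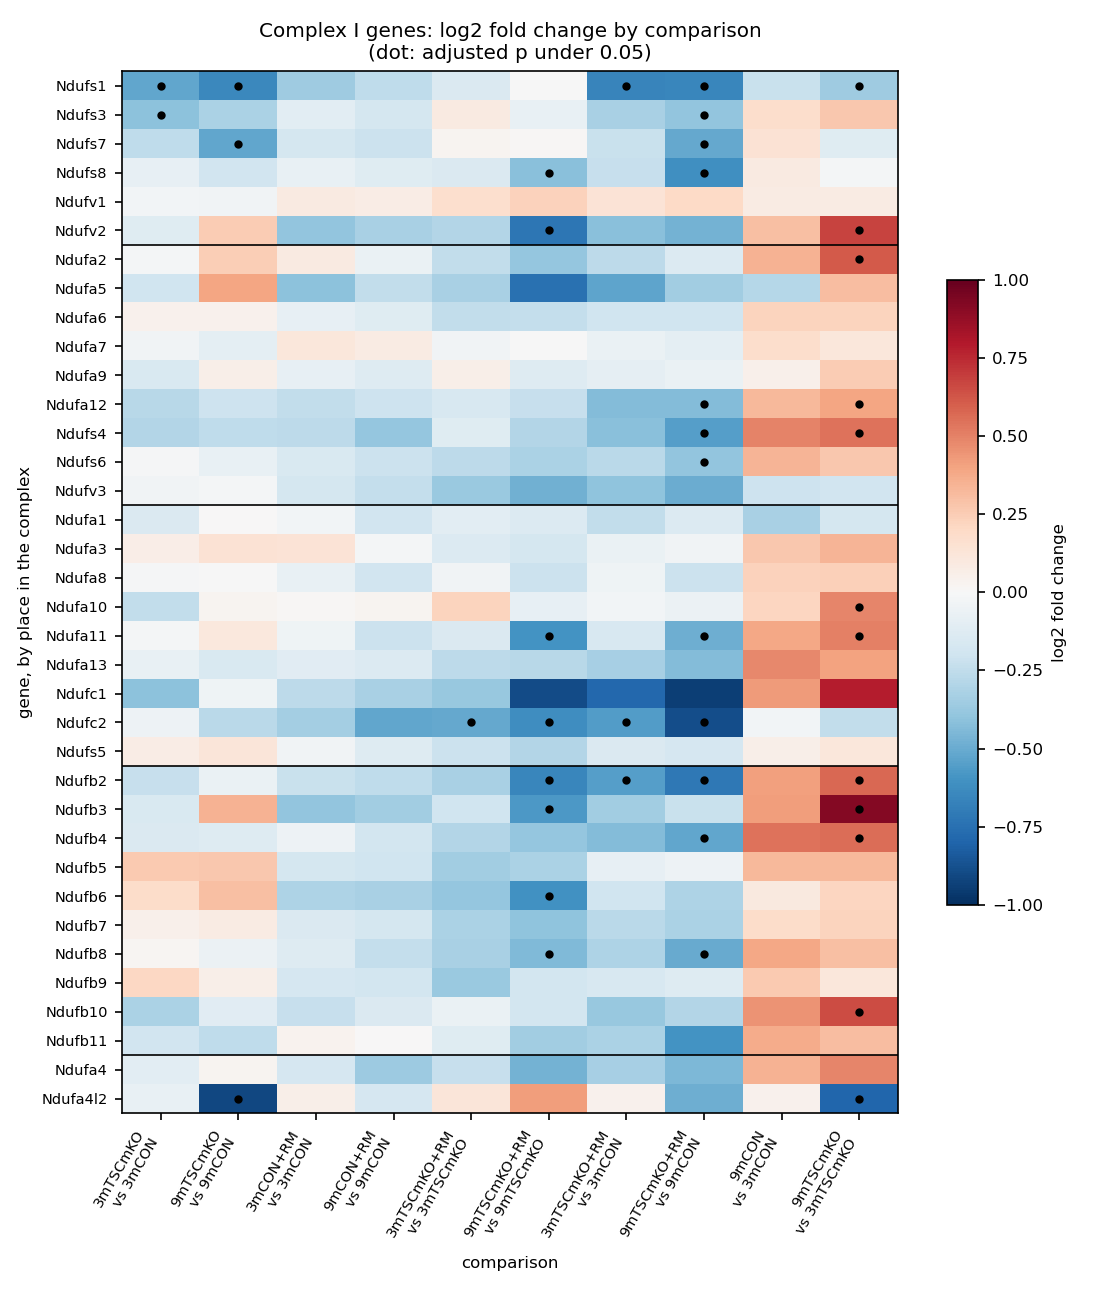
Rows are 36 genes by place in the complex (core and accessory peripheral arm, proximal and distal membrane arm, and the genes matched by name alone), columns are the 10 comparisons, color is the log2 fold change and dots mark an adjusted p under 0.05. The 4 columns of rapamycin against vehicle are mostly blue, with 8 dots in 9mTSCmKO and 1 in 3mTSCmKO, and the last column, age in TSCmKO, is mostly red with 12 dots.

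Rapamycin-treated mutant muscle was also set against untreated controls, which shares its samples with the comparisons above. At 9 months 12 members were lower in 9mTSCmKO+RM than in 9mCON and none was higher, 32.4% against 31.9% of all genes changed and 16.2% lower. The median was -0.39, with 36 of 37 negative, against -0.03 over all genes. The 12 were the core subunits Ndufs1, Ndufs3, Ndufs7 and Ndufs8, the accessory peripheral arm subunits Ndufs4, Ndufs6 and Ndufa12, and the membrane arm subunits Ndufc2, Ndufa11, Ndufb2, Ndufb4 and Ndufb8. The largest was Ndufc2 at -0.89 (SE of 0.19, adjusted p of 0.000369), followed by Ndufb2 at -0.72 (SE of 0.16, adjusted p of 0.000467). These 2 had no overlap between the libraries, and the share of all genes without overlap was not computed in any comparison. Ndufs1 followed with -0.65 (SE of 0.14, adjusted p of 0.000263) and Ndufs8 with -0.62 (SE of 0.14, adjusted p of 0.000932), and the other 8 lay between -0.55 and -0.39. The count of members that passed was 5 without 9mCON replicate 2, 6 without 9mTSCmKO+RM replicate 3, 20 without 9mTSCmKO+RM replicate 1 and 17 without the 4 libraries that stand apart. Shares of all genes in these fits are not given, and the 31.9% and 16.2% belong to the fit of all libraries. In the same comparison 6 of 7 slow fiber markers were higher (sums of 802 to 1317 against 124 to 197 CPM), and 5 of 6 fibroblast and tendon markers (308 to 542 against 680 to 1488 CPM) and 2 of 5 macrophage and leukocyte markers were lower, and their part was not tested.

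At 3 months 3 members were lower in 3mTSCmKO+RM than in 3mCON and none was higher, 8.11% against 16.7% of all genes changed and 7.71% lower. They were Ndufs1 at -0.66 (SE of 0.14, adjusted p of 0.000448), Ndufc2 at -0.56 (SE of 0.19, adjusted p of 0.0341) and Ndufb2 at -0.55 (SE of 0.16, adjusted p of 0.0105). The median was -0.27 with 35 of 37 negative, against -0.02 over all genes. No overlap between the libraries was seen for 8 members. The count was 10 without the libraries that stand apart and 1 without 3mCON replicate 4.

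Age was compared within each genotype, with the labelled insert size changing alongside it. In CON no member passed between 9 and 3 months by edgeR, against 1.02% of all genes at the adjusted threshold. At an unadjusted p under 0.05, 10 were higher, and the share of all genes at that threshold is not given. DESeq2 called 1 and limma on TPM 0. The median was 0.23, and it was 0.03 without the libraries that stand apart. In TSCmKO 12 members changed, 32.4% against 37.4% of all genes, 10 of them higher (19.1% of all genes) and 2 lower (18.3%). The 10 were Ndufb3, Ndufv2, Ndufb10, Ndufa2, Ndufb2, Ndufb4, Ndufs4, Ndufa11, Ndufa10 and Ndufa12, and the 2 were Ndufa4l2 and Ndufs1. The median was 0.27, or 0.14 without the libraries that stand apart, where 11 passed, 8 higher and 3 lower. With insert size as a term, which follows age in these libraries, the call was kept by Ndufb3 alone of the 12, and Ndufs5 was added. With that term all 12 kept their direction, and the median of all 37 members was 0.39, with 2 of 37 negative instead of 7. Among the 12, some values were nearer to 0 with the term, such as those of Ndufv2 and Ndufb2, and others further from it, such as that of Ndufb10. The parts of age and insert size in these values cannot be told apart. Slow fiber markers moved in the same comparison, 5 of 7 higher, with sums of 281 to 1217 CPM in 3mTSCmKO and 1060 to 2851 CPM in 9mTSCmKO. Lower were 4 of 6 fibroblast and tendon markers (718 to 1343 against 258 to 766 CPM, with Scx higher), 4 of 4 adipocyte markers (9.03 to 55.03 against 2.71 to 7.91 CPM), 4 of 5 erythroid markers (467 to 9036 against 275 to 1196 CPM) and 3 of 5 endothelial markers (292 to 328 against 199.98 to 293 CPM). The part of these in the members' values was not tested.

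At 3 months Ndufb3 stood, in CPM of replicates 1 to 5, at 104, 105, 96.4, 107 and 97.5 in 3mCON, 82.8, 79.6, 73.5, 77.3 and 75.5 in 3mCON+RM, 84.6, 61.3, 98.8, 104 and 111 in 3mTSCmKO, and 80.3, 84.8, 96.5, 67.8 and 70.7 in 3mTSCmKO+RM. Its 9-month values were 129, 241, 107, 121 and 85.0 in 9mCON, 164, 90.8, 106, 62.4 and 114 in 9mCON+RM, 198, 135, 269, 143 and 126 in 9mTSCmKO, and 172, 96.9, 85.5, 105 and 127 in 9mTSCmKO+RM. The 9mTSCmKO libraries all lay above the 3mTSCmKO libraries. Ndufb3 is an accessory subunit of the distal membrane arm on chromosome 1 from 58586384 to 58595964. Its log2 fold change with age was 0.92 (SE of 0.23, adjusted p of 0.00172) in TSCmKO, and 0.42 (SE of 0.22, adjusted p of 0.33) in CON. Ndufb10 at 0.65 (SE of 0.17, adjusted p of 0.00318) and Ndufa10 at 0.49 (SE of 0.10, adjusted p of 0.000328) had no overlap between libraries either, nor did Ndufa4l2, which was lower. Ndufv2 was higher by 0.67 (SE of 0.22, adjusted p of 0.0174), and Ndufb2 by 0.58 (SE of 0.16, adjusted p of 0.00371). With insert size as a term these were 0.33 for Ndufv2 (adjusted p of 0.516) and 0.20 for Ndufb2 (0.532), while Ndufb10 was at 0.73 (0.0521), Ndufa2 at 0.65 (0.196) and Ndufs1 at -0.38 (0.181). On log2(TPM + 1) the value of Ndufb2 was 0.14, with an adjusted p of 0.421 by limma. The 2 lower members were at -0.79 (SE of 0.21, adjusted p of 0.0037) for Ndufa4l2 and -0.35 (SE of 0.13, adjusted p of 0.0372) for Ndufs1.

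**Figure D4:**
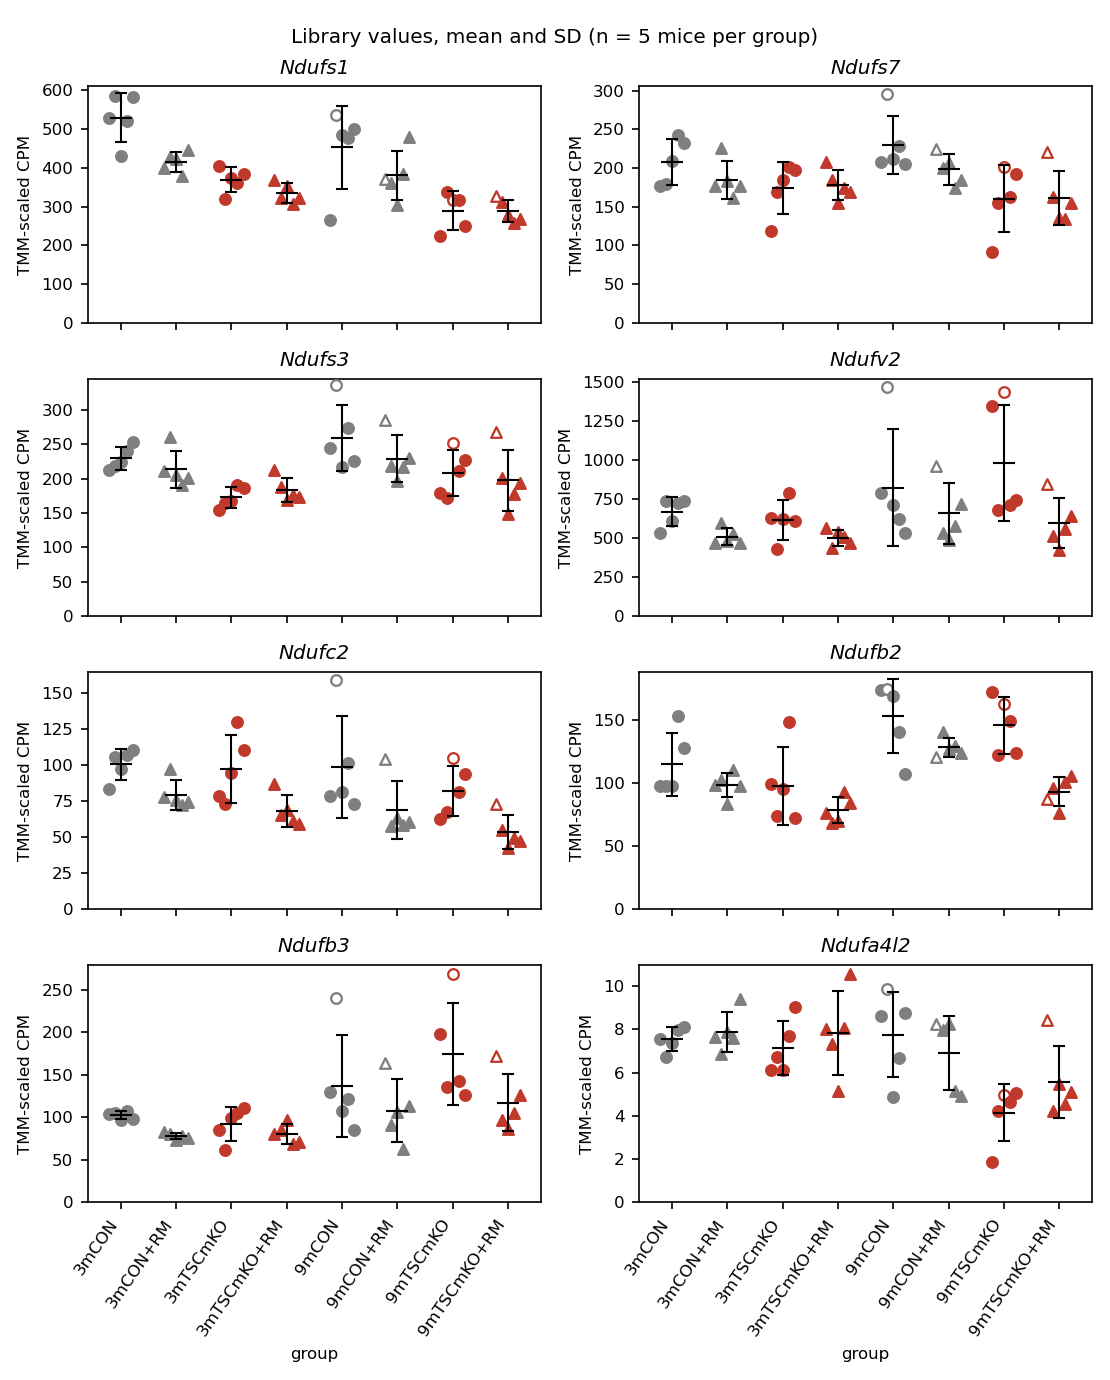
TMM-scaled CPM of 8 members in all 40 libraries (circles vehicle, triangles rapamycin, gray CON, red TSCmKO, open symbols the 4 libraries that stand apart), with mean and SD of 5 mice per group. On vehicle, Ndufs1 lies lower in TSCmKO than in CON at each age but for 9mCON replicate 1, and Ndufb2 is lower in 9mTSCmKO+RM (76.2 to 105.8 CPM) than in 9mTSCmKO (122.6 to 173 CPM).

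The CPM of Ndufv1 in replicates 1 to 5 were, at 3 months, 242, 242, 198, 234 and 266 in 3mCON, 245, 274, 249, 237 and 251 in 3mCON+RM, 213, 209, 213, 234 and 287 in 3mTSCmKO, and 297, 269, 241, 236 and 255 in 3mTSCmKO+RM. In the older mice Ndufv1 stood at 201, 271, 249, 248 and 284 in 9mCON, 262, 248, 273, 250.2 and 288 in 9mCON+RM, 171, 306, 262, 268 and 219 in 9mTSCmKO, and 350.4, 287, 292, 254 and 255 in 9mTSCmKO+RM. Ndufv1 passed the test in none of the comparisons. This core subunit, which binds NADH and its flavin, lies on chromosome 19 from 4007384 to 4012806, and its groups overlapped throughout, between 171 and 350.4 CPM. Its log2 fold change with rapamycin in TSCmKO was 0.23 (SE of 0.12, adjusted p of 0.133) at 9 months, one of 4 positive values among the members.

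Seen by place in the complex, the 7 core subunits of the peripheral arm gave 2 lower at 9 months and 2 lower at 3 months by genotype, 2 lower with rapamycin in 9mTSCmKO and 4 lower in 9mTSCmKO+RM against 9mCON. Of all genes, 18.9%, 8.32%, 16.8% and 16.2% were lower in these comparisons, and groups of 7 to 10 genes are too small for their shares to be read closely against that. Their median log2 fold change was -0.19 for genotype at 9 months and -0.00 for rapamycin in 9-month mutants. The 9 accessory subunits of the peripheral arm, the 9 of the proximal and the 10 of the distal membrane arm had medians of -0.02, 0.00 and 0.00 for genotype at 9 months and of -0.30, -0.28 and -0.40 for rapamycin in 9-month mutants. Single libraries moved these medians. Without 9mCON replicate 2 the genotype medians were 0.09, 0.22 and 0.20 for the accessory groups in the same order and -0.12 for the core subunits. Without 9mTSCmKO replicate 3 the rapamycin medians were -0.20, -0.15 and -0.28 and 0.02 for the core subunits, and without 9mTSCmKO+RM replicate 1 they were -0.46, -0.43 and -0.60, with -0.13 for the core subunits. By genotype no accessory subunit was called at either age in the fit of all libraries. Without 9mCON replicate 2, Ndufa5, Ndufb3, Ndufb5 and Ndufb6 were called higher at 9 months. Without the 4 libraries that stand apart, Ndufb3 was called higher at 9 months, and Ndufs4, Ndufa10 and Ndufb10 lower at 3 months. The difference between core and accessory subunits was not tested. In the fit of all libraries Ndufa4 passed the test in none of the comparisons, at 0.03 (SE of 0.22, adjusted p of 0.932) for genotype and -0.47 (SE of 0.22, adjusted p of 0.0916) for rapamycin in 9-month mutants, where it was called lower without 9mTSCmKO+RM replicate 1 (-0.60, adjusted p of 0.041).

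The other genes of the pathway were described by the same counts. Of 19 assembly factors tested, which build complex I but are no part of it, 2 were higher and 5 lower in 9mTSCmKO than in 9mCON, 36.8% against 37.9% of all genes, a share near that background. Ndufaf2 was higher by 0.80 ± 0.16 and Tmem126a (-0.52 ± 0.14) and Tmem186 (-0.51 ± 0.12, log2 ± SE) were lower. At 3 months 2 were lower, 10.5% against 19.8% of all genes changed, Nubpl (-0.59 ± 0.15), which delivers iron-sulfur clusters to the complex, and Tmem186 (-0.36 ± 0.12). With rapamycin in TSCmKO Nubpl was higher at 9 months (0.71 ± 0.15) and at 3 months (0.75 ± 0.15). In the younger mutants Ndufaf3 was higher too (0.48 ± 0.14) and Tmem126b (-0.45 ± 0.12) and Ndufaf7 (-0.44 ± 0.13) were lower, 21.1% changed against 23.6% of all genes. The other 5 that changed at 9 months were lower, Ndufaf5 (-0.70 ± 0.25) and Ndufaf7 (-0.54 ± 0.13) by most, so that 31.6% changed against 32.6% of all genes. Against 9mCON, 6 were lower in 9mTSCmKO+RM, led by Tmem126a (-0.84 ± 0.15) and Ndufaf6 (-0.83 ± 0.15), and none was higher, 31.6% against 31.9% of all genes changed. In 9mCON+RM against 9mCON Ndufaf1 was lower (-0.51 ± 0.14).

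Subunits of the other respiratory complexes gave small counts as well. By genotype at 9 months, Sdha of complex II (-0.34 ± 0.13) and Atp5a1 of complex V (-0.28 ± 0.12) were lower and none of the 40 genes of complexes II to V was higher, and the same 2 genes were lower at 3 months (-0.39 ± 0.13 and -0.36 ± 0.12). Of all genes 37.9% changed and 18.9% were lower at 9 months, and 19.8% and 8.32% at 3 months. With rapamycin in 9-month mutants 7 of the 40 were lower, among them Atp5g3 (-0.83 ± 0.19), Cox7b (-0.81 ± 0.24) and Uqcrq (-0.63 ± 0.23), and 2 were higher, Atp5g2 (0.46 ± 0.18) and Sdha (0.34 ± 0.13), against 16.8% of all genes lower and 32.6% changed. Medians with rapamycin in 9-month mutants were -0.27 for complex II, -0.32 for complex III, -0.38 for complex IV and -0.27 for complex V, beside -0.30 for the members. Ndufab1, outside the name rule, was lower with rapamycin in 9-month mutants (-0.59 ± 0.22) and higher with age in TSCmKO (0.74 ± 0.22). Of 7 genes taken as markers of mitochondrial content, Cs, Vdac1 and Vdac2 were lower in 9mTSCmKO, at -0.39 ± 0.11, -0.32 ± 0.11 and -0.44 ± 0.12, and none was higher, 42.9% against 37.9% of all genes changed and 18.9% lower, with a median of -0.19. At 3 months 3 of the 7 were lower as well, Hspd1 (-0.44 ± 0.16), Vdac2 (-0.40 ± 0.12) and Cs (-0.34 ± 0.11), against 19.8% of all genes changed and 8.32% lower, with a median of -0.34 and 6 of 7 negative. A list of 7 genes is too short for its share to be read closely against the background.

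Of the regulators of mitochondrial genes, 9 were followed. Ppargc1a, the coactivator that drives mitochondrial biogenesis, was lower in 3mTSCmKO than in 3mCON (-1.13 ± 0.34), and its 9-month value was -0.84 with an adjusted p of 0.0525. Esrrg was higher in 9mTSCmKO than in 9mCON (1.22 ± 0.28). Perm1, a muscle regulator that acts with Ppargc1a and the estrogen-related receptors, was lower with rapamycin in TSCmKO at 9 months (-0.89 ± 0.20) and at 3 months (-0.84 ± 0.20). Its values in CON were -0.48 and -0.63, with adjusted p of 0.114 and 0.167. Esrra (-0.34 ± 0.13) and Esrrg (-1.04 ± 0.28) were lower with rapamycin in 3-month mutants, Yy1 was higher in 9-month mutants (0.40 ± 0.09) and Nrf1 in 9-month controls (0.34 ± 0.11). Against 9mCON, 5 of the 9 changed in 9mTSCmKO+RM, 55.6% against 31.9% of all genes, with Perm1 (-1.05 ± 0.20), Ppargc1a (-1.04 ± 0.35) and Esrra (-0.38 ± 0.13) lower and Esrrg (0.87 ± 0.28) and Yy1 (0.26 ± 0.09) higher. With rapamycin in TSCmKO 2 of the 9 changed at 9 months, 22.2% against 32.6%, and 3 at 3 months, 33.3% against 23.6%. By genotype 1 changed at each age, 11.1% against 37.9% at 9 months and 19.8% at 3. Also 1 of the 9 was lower with age in TSCmKO, 11.1% against 37.4%, and 1 in 3mTSCmKO+RM against 3mCON, 11.1% against 16.7%. A list of 9 genes is too short for its share to be read closely against the background. Gabpa, Tfam and Ppargc1b passed the test in none of the comparisons.

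Transcript length moved with several of these values, and its part in them was not tested. With rapamycin in 9-month mutants, other genes up to 600 nt had a median log2 fold change of -0.21, those above 600 and up to 800 nt -0.15, those up to 1000 nt -0.13, those up to 1500 nt -0.10 and longer ones -0.02. The members of the same length classes had medians of -0.29, -0.46, -0.32, -0.20 and -0.30, lower than the other genes in each class, with 9, 10, 7, 8 and 3 members. Between 9mTSCmKO and 3mTSCmKO the medians of other genes from the shortest to the longest class were 0.06, 0.26, 0.31, 0.18 and -0.06, and those of the members 0.27, 0.26, 0.27, 0.33 and 0.51.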

How the data were processed

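Poly(A) RNA of EDL muscle from 8 groups of 5 mice was sequenced in 1 library per mouse. Per the labels and the study's methods, the authors trimmed directional single-end reads with cutadapt 1.9.1, aligned them with kallisto 0.43.1 to protein-coding Ensembl transcripts of GRCm38, divided a read that matched several transcripts equally among them and summed per gene. The deposited estimated counts are whole numbers. The deposited TPM were scaled by the authors to transcript length and library size.

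Groups came from the labels. Genes at 1 CPM in 5 of 40 libraries (13543 of 22844) were scaled by TMM and fitted as 8 group means in a single model over all libraries with edgeR 4.0.16 (R 4.3.3, robust quasi-likelihood test), with Benjamini-Hochberg adjustment at 0.05. Differences between effects were contrasts of the same model. Libraries of 8883870 to 35224669 counts limit the precision. The scripts were tested on simulated data. Alternatives were DESeq2 1.42.0, limma 3.58.1 on log2(TPM + 1), other scalings, no CPM filter, only the groups compared, insert size or replicate number as a term, and leaving out libraries. Transcript length was inferred from the ratio of counts to TPM, and gene positions were those of GENCODE M21 (GRCm38). Same-numbered libraries were not treated as pairs.

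The members and gene lists were chosen with earlier results of these data known. Library values are given for the core subunits and for the members with the largest changes past the test in each comparison (the 3 largest for genotype and for rapamycin in TSCmKO, otherwise the largest each way). Of the other lists the largest changes each way are named, with the regulators except those of age in TSCmKO and of 3mTSCmKO+RM against 3mCON. Values of 1 member are not reported here, although it stays in the counts and medians. The p-values measure the spread between these mice.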

Additional observations from a re-analysis of the deposited data

Results flagged for a closer look

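Single libraries far from the other 4 of their group were looked for in the 10 members given by library and in the median of all members, by Dixon's criterion (0.71 for 5 samples). Of 88 such groups 9 were over it. Chance flags about 1 in 20 of independent groups, but these share libraries and the members move together. The 9 therefore cannot be read against that rate. Most of the 9 fell in libraries that stand apart. Replicate 2 of 9mCON was high for Ndufv2 (1465 CPM), Ndufs7 (296 CPM) and Ndufb3 (241 CPM), and 9mCON+RM replicate 1 was high for Ndufc2 (104 CPM). The median of all members also lay apart in 9mCON+RM replicate 1, at 0.43 above the mean of all libraries (log2). Outside these libraries, Ndufs3 (260.2 CPM) and Ndufc2 (97.3 CPM) were high in 3mCON+RM replicate 2. Ndufs1 was low in 9mCON replicate 1 (266 CPM), and Ndufa4l2 was low in 9mTSCmKO replicate 1 (1.87 CPM).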

How the results depend on the processing

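Counts of members past the test moved by over 1.5 times under the settings given here, and their causes were not tested beyond what each setting changes. The share of all genes that passed in each setting is not given, so these counts cannot be set against it. For rapamycin in 9-month TSCmKO (8) the count was 5 without a CPM filter, 15 by limma on log2(TPM + 1), 2 with only the groups compared and 18 without the 4 libraries that stand apart, a setting chosen after seeing the data. At 3 months (1) it was 0 without a filter or with insert size as a term, 2 by limma, and 4 with only the groups compared or without the libraries that stand apart. In 9-month CON (0) it was 1 with upper-quartile scaling, 2 by limma and 1 without the libraries that stand apart, and in 3-month CON (0) it was 1 with only the groups compared. For genotype it was 6 by limma at 9 months (3), and at 3 months (2) it was 4 by limma and 5 without the libraries that stand apart. For 9mTSCmKO+RM against 9mCON (12) it was 5 with only the groups compared, and for 3mTSCmKO+RM against 3mCON (3) it was 5 by DESeq2, 7 by limma, 15 with only the groups compared and 10 without the libraries that stand apart. For age it was 1 by DESeq2 in CON (0) and 2 with insert size as a term in TSCmKO (12).

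Leaving out 1 library at a time gave 2 to 8 members for genotype at 9 months and 1 to 4 at 3 months, 2 to 20 for rapamycin in 9-month and 0 to 2 in 3-month TSCmKO, 0 to 1 in 9-month and 0 in 3-month CON, 5 to 20 for 9mTSCmKO+RM against 9mCON, 1 to 4 for 3mTSCmKO+RM against 3mCON, and 0 to 3 (CON) and 8 to 16 (TSCmKO) for age. The 3 in CON came without 9mCON replicate 5, and the 4 for genotype at 3 months without 3mTSCmKO replicate 4. The differences between effects stayed at 0 members in every such fit. Replicate numbers did not pair the mice (at most 2 of 5 same-numbered pairs correlated above 0.1). With the replicate block the count for rapamycin in 3-month TSCmKO was 0, and the other counts stayed within 1.5 times. By limma the median of all genes for age in CON was -0.10, and the members' median of 0.08 there stands against it. The members' median for genotype at 9 months was 0.04 by limma, opposite in sign to the edgeR value. In every setting run, no named member that passed the test changed direction. The call of Ndufs1 and Ndufa4l2 for genotype at 9 months, and of Ndufb2 and Ndufc2 for rapamycin in 9-month TSCmKO, held in all of them.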
